A study of Sus scrofa with 16 samples.

Results

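The cell cycle and DNA replication genes described here were listed by symbol, 33 genes in all, and a gene was kept where the array had a probe set annotated with that gene alone. Of the 33 genes 20 had such a probe set, out of 6765 genes on the array. Where a gene had several, the probe set with the highest mean over the 16 arrays was used. The 20 genes were divided by the phase in which their products act: 8 S phase genes (MCM2, MCM3, MCM4, MCM5, PCNA, TYMS, RRM1 and RRM2) and 12 genes of G2 and mitosis (TOP2A, CCNB1, CCNB2, CCNA2, AURKA, AURKB, PLK1, BIRC5, UBE2C, CDC20, NUSAP1 and CENPF). The other 13 listed genes, among them both G1 cyclins CCND1 and CCNE1 and the proliferation marker MKI67, had no annotated probe set and were not analysed here.

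Gene expression had been measured on an Affymetrix porcine array in a proximal and a distal piece of small intestine. The donors were crossbred piglets (Landrace x Large white x Duroc), delivered preterm by caesarean section on gestation day 105. A total of 24 piglets from 2 sows had been allocated, 11 to ampicillin, gentamicin and metronidazole given by mouth and into muscle, and 13 to saline. All of them, controls included, were fed through a vein at first, with little enteral feed, and through a gastric tube alone from day 3, and tissue was taken on day 5. The 4 groups held 4 arrays each: antibiotics proximal (animals 86, 87, 95 and 98), control proximal (83, 88, 89 and 92, titled untreated although saline was given), antibiotics distal (85, 86, 87 and 95) and control distal (83, 88, 89 and 92). The numbers were read from the sample names as those of animals, which gives 9 animals, 7 of them with both segments. The tissue was whole intestine with all its cell types, so fewer cells of a type and less RNA per cell cannot be told apart.

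In the small intestine, cells divide in the crypts and stop dividing as they move onto the villi. A dividing cell first licenses its replication origins with the MCM helicase and copies its DNA in S phase, using deoxynucleotides that ribonucleotide reductase and thymidylate synthase provide. It then enters mitosis under B-type cyclins and the Aurora and Polo kinases, and leaves it when the anaphase-promoting complex has the cyclins degraded. Transcripts of the mitotic group accumulate late in the cycle, and those of the S phase group earlier.

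Values are GCRMA levels on a log2 scale, so a difference of 1 is a doubling, and levels were compared only within a probe set. A probe set was tested where at least 4 of the 16 arrays gave it a value above 5 (log2), which 11538 probe sets did, among them those of 7 S phase and 10 G2 and mitosis genes. MCM4 lay at the floor of the scale, between 2.14 and 2.19, on all 16 arrays. CCNA2, the cyclin that acts in S phase and G2, lay between 2.14 and 3.22, and AURKB, the kinase of the chromosomal passenger complex, between 2.90 and 4.49, so neither was tested. Of the tested genes MCM5, a helicase subunit, and PLK1, the Polo kinase of mitotic entry, hardly varied. MCM5 was within 0.05 of its median of 5.80 on 14 of 16 arrays and PLK1 within 0.05 of 4.93 on 9.

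Between 45.1% and 46.5% of probe sets were above 5 on each array. GCRMA evens out the distributions of arrays, so this share is no check of the samples. Precision is limited by the number of arrays. All 15 villus enterocyte markers with a probe set passed the filter, and the log2 of their summed level was between 17.46 and 18.84 on all 16 arrays. On an axis that runs from 0 at the mean of the antibiotics proximal arrays to 1 at that of the antibiotics distal arrays, over 606 probe sets called between them, the control distal arrays lay at 0.42 (animal 83), 0.42 (88), 0.69 (89) and 0.53 (92), and the control proximal arrays between 0.04 and 0.24. Since these probe sets were chosen on the treated arrays, arrays that took no part in the choice tend to fall inside the range, and the positions of the controls are only a description. Control proximal arrays 83 and 92 stood apart from 88 and 89, as described below.

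In distal tissue all 17 tested cell cycle genes had lower mean levels with antibiotics than with saline, against 49.6% of all tested probe sets. The 3 untested genes also had lower means, CCNA2 by a difference of -0.13, AURKB of -0.31 and MCM4, from 1 control array above the floor, of -0.01. The median difference was -0.64 over the 12 G2 and mitosis genes and -0.26 over the 8 S phase genes, where the median over all tested probe sets was 0.00. No single gene passed an adjusted p of 0.05 in limma (0 of 17 tested, against 2.12% of all probe sets). At an unadjusted p under 0.05, 6 genes were lower, 1 of S phase and 5 of G2 and mitosis, against 7.95% of all probe sets on the lower side. For 5 genes (RRM2, TOP2A, CCNB1, AURKA and UBE2C) all 4 antibiotics arrays lay below all 4 control arrays, which 6.31% of all probe sets did. Fits with other settings called between 0 and 5 of the 17.

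UBE2C encodes the ubiquitin-conjugating enzyme that works with the anaphase-promoting complex. Its distal level was 5.92, 6.47, 6.18 and 6.49 in antibiotics animals 85, 86, 87 and 95, and 7.38, 7.26, 8.43 and 8.02 in control animals 83, 88, 89 and 92. Every treated animal lay below every control. The difference was -1.51 (SE 0.52, 95% interval -2.61 to -0.40), a 2.84-fold lower mean, with an adjusted p of 0.158 in limma.

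AURKA encodes the kinase that matures centrosomes and builds the spindle poles. Its distal level was 4.66, 5.11, 4.44 and 5.49 with antibiotics and 6.16, 5.87, 6.16 and 6.80 in controls, in the same order of animals. There was no overlap between the groups, and animals 85 and 87 were lowest. The difference was -1.32 (SE 0.42, interval -2.21 to -0.43, limma adjusted p = 0.121). With the 8 distal arrays fitted alone, AURKA and UBE2C were the only genes of the 17 past the threshold (adjusted p = 0.0401 and 0.0268), and without control proximal arrays 83 and 92, which leave the distal means as they are and only narrow the estimate of the spread, AURKA alone was (adjusted p = 0.0321). A second probe set of AURKA differed by -0.72 (adjusted p = 0.281). It passed the filter through 5 arrays, all of them controls, so a lower treated mean was favoured in advance. Its distal groups overlapped, with treated animal 87 and control 88 both at 4.53.

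The B-type cyclins bind CDK1 and drive entry into mitosis. Distal CCNB1 was 9.04, 9.58, 9.90 and 9.26 with antibiotics and 10.28, 10.25, 10.18 and 10.54 in controls, a difference of -0.87 (SE 0.38, adjusted p = 0.28). Controls lay close together and all above the treated animals. CCNB2 was 6.67, 7.43, 8.35 and 7.23 with antibiotics and 8.46, 8.33, 8.04 and 8.72 in controls, a difference of -0.97 (SE 0.39, adjusted p = 0.238). Here animal 87 lay among the controls, and the other 3 treated animals lay below them.

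TOP2A, the topoisomerase that untangles replicated chromosomes, was 9.04, 9.70, 9.94 and 9.49 with antibiotics and 10.21, 10.26, 10.66 and 10.49 in controls. Treated and control animals were again apart, and the difference was -0.86 (SE 0.36, adjusted p = 0.243). BIRC5 (survivin), a subunit of the chromosomal passenger complex, differed by -0.78 (SE 0.38, adjusted p = 0.333) and its groups overlapped, as control 89 was at 8.41. The remaining mitotic genes differed by less. CENPF, a kinetochore protein, differed by -0.50, NUSAP1, which bundles spindle microtubules, by -0.42, PLK1 by -0.29 and CDC20, the activator of the anaphase-promoting complex, by -0.28. Their adjusted p ranged from 0.377 for NUSAP1 to 0.767 for CDC20. A second probe set of NUSAP1 had the opposite sign (0.55, adjusted p = 0.562), so its 2 probe sets disagreed.

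Among the S phase genes RRM2, the regulated subunit of ribonucleotide reductase, stood apart from the rest. Its distal level was 5.76, 5.70, 6.19 and 4.36 in antibiotics animals 85, 86, 87 and 95 and 6.40, 6.40, 7.35 and 6.61 in controls 83, 88, 89 and 92. Treated animals were all below the controls, and animal 95 was the lowest by more than 1 log2 unit. The difference was -1.19 (SE 0.48, interval -2.21 to -0.17, adjusted p = 0.236), and -0.81 without animal 95. RRM1, the large subunit of the same enzyme, was 9.85, 9.94, 10.28 and 9.14 with antibiotics and 9.93, 10.20, 10.35 and 9.91 in controls, a difference of -0.29 (SE 0.26, adjusted p = 0.641). Its groups overlapped, with animal 95 again lowest, and without that animal the difference was -0.07 and the S phase median -0.097.

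The replication machinery itself showed small distal differences. PCNA, the sliding clamp of the replicative polymerases, differed by -0.46 (SE 0.37), or -0.27 without animal 95, the helicase subunits MCM2 and MCM3 by -0.18 and -0.23, and MCM5 by -0.02. TYMS (thymidylate synthase) differed by -0.34 (SE 0.53). None of these 5 had groups apart or an unadjusted p under 0.05, and the adjusted p ranged from 0.609 to 0.979.

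**Figure D1:**
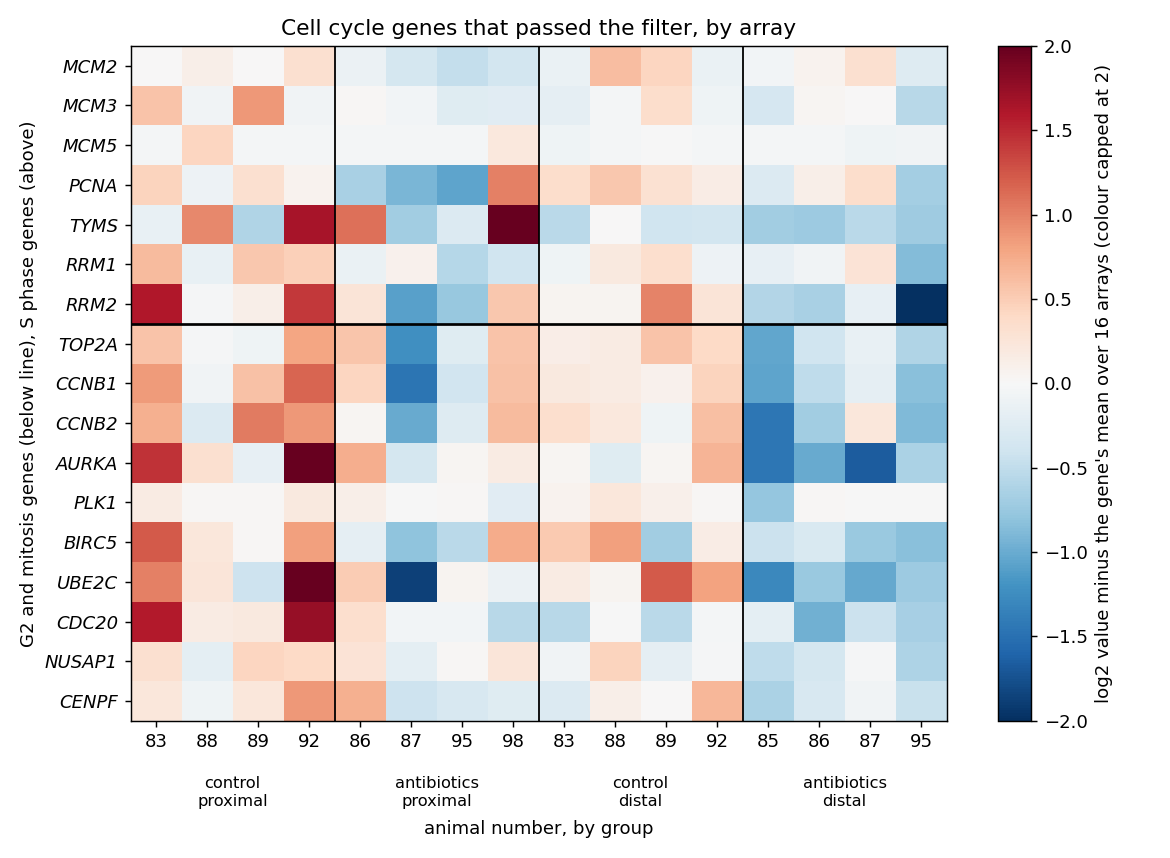
Level of each of the 17 tested genes on each of the 16 arrays, as the log2 value minus the gene's mean over all arrays (colour, capped at 2 in both directions), with S phase genes above the horizontal line, G2 and mitosis genes below it, and arrays ordered by group and animal number. The antibiotics distal columns are mostly blue, those of animals 85 and 95 for all 17 genes, and control proximal columns 83 and 92 are the reddest among the mitotic genes.

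Seen by array, the G2 and mitosis genes separated the distal groups more clearly than the S phase genes. The median deviation of the 12 mitotic genes from their own means over 16 arrays was -0.71, -0.37, -0.15 and -0.64 in antibiotics distal animals 85, 86, 87 and 95, and 0.05, 0.14, 0.02 and 0.29 in control distal animals 83, 88, 89 and 92. All treated animals lay below 0 and all controls above it. For the 8 S phase genes the same measure was -0.21, -0.02, 0.00 and -0.62 with antibiotics and -0.08, 0.03, 0.32 and -0.06 in controls, and the groups overlapped. Of the 17 tested genes, 17 were below their own mean in antibiotics distal animals 85 and 95, 13 in 86 and 12 in 87. The count was 4 to 8 in control distal, 5 to 16 in antibiotics proximal and 2 to 9 in control proximal arrays. MCM5, nearly constant, lay below its own mean on most arrays of every group. Leaving out animal 95 brought the S phase median difference in distal tissue from -0.26 to -0.10, while the mitotic median stayed between -0.69 and -0.53 whichever distal array was left out.

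**Figure D2:**
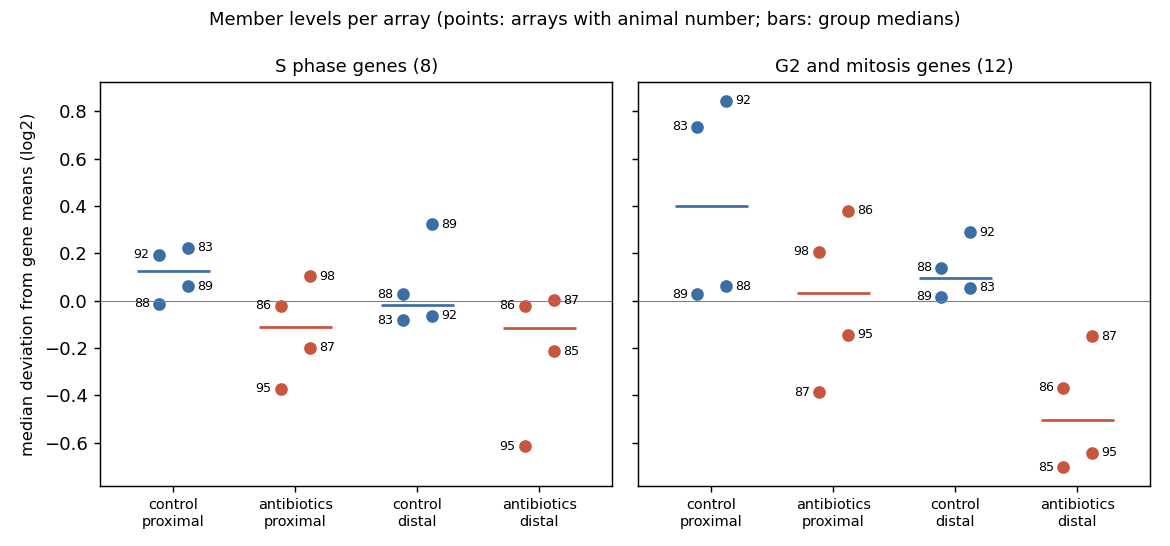
Median deviation of the 8 S phase genes (left) and the 12 G2 and mitosis genes (right) from their means over 16 arrays (log2, vertical axis), with a point for each array, labelled by animal number, and bars at group medians. The mitotic genes lie between -0.71 and -0.15 in the antibiotics distal arrays and between 0.02 and 0.29 in the control distal arrays, and control proximal arrays 83 and 92 lie highest, at 0.74 and 0.85.

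In proximal tissue 16 of 17 tested genes had a lower mean with antibiotics, against 56.8% of all tested probe sets. The exception was TYMS, with a difference of 0.07 (adjusted p = 0.978). Of the untested genes CCNA2 and AURKB had lower means (-0.26 and -0.15) and MCM4 was at the floor. The median difference was -0.57 over the G2 and mitosis genes and -0.44 over the S phase genes, beside -0.07 over all tested probe sets. Again 0 of 17 genes passed the threshold in limma (0.147% of all probe sets did), and 4 had an unadjusted p under 0.05 on the lower side (7.28% of all), namely RRM1, RRM2, CCNB1 and CDC20. The groups were apart for MCM2 only, against 1.74% of all probe sets.

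CDC20 had the smallest p of the 17 in proximal tissue. Its level was 5.96, 5.57, 5.57 and 5.07 in antibiotics animals 86, 87, 95 and 98 and 7.20, 5.78, 5.82 and 7.36 in controls 83, 88, 89 and 92. Controls 83 and 92 stood more than 1 log2 unit above the other two, which lay within the range of the treated animals. The difference was -0.999 (SE 0.35, interval -1.75 to -0.25, limma adjusted p = 0.252), and it was -0.26 (SE 0.30, adjusted p = 0.999) when arrays 83 and 92 were left out, a choice made after the data were seen.

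The same 2 arrays were the highest of their group for much of the mitotic group. Control proximal UBE2C was 8.22, 7.45, 6.80 and 9.29 in animals 83, 88, 89 and 92, and 7.72, 5.35, 7.26 and 7.09 in antibiotics animals 86, 87, 95 and 98. Control proximal AURKA was 7.55, 6.43, 5.95 and 8.17, and 6.84, 5.76, 6.16 and 6.28 with antibiotics. The groups overlapped for both genes, with differences of -1.09 (SE 0.52, adjusted p = 0.401) and -0.77 (SE 0.42, adjusted p = 0.473). Without the array of antibiotics animal 87 the UBE2C difference was -0.58. The median deviation of the 12 mitotic genes was 0.74 and 0.85 in control proximal arrays 83 and 92, against 0.06 and 0.03 in 88 and 89 and between -0.39 and 0.38 in the antibiotics proximal arrays. Without arrays 83 and 92 the mitotic median difference in proximal tissue was -0.10 in place of -0.57, and that of the S phase genes -0.35 in place of -0.44. These 2 arrays were also the lowest in villus enterocyte markers, and the part of that in the result was not tested.

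RRM2 in proximal tissue was 6.61, 5.27, 5.59 and 6.89 with antibiotics and 7.96, 6.33, 6.47 and 7.77 in controls, a difference of -1.04 (SE 0.48, adjusted p = 0.377). Controls 88 and 89 lay within the treated range. RRM1 was 9.88, 10.10, 9.43 and 9.61 with antibiotics and 10.64, 9.87, 10.55 and 10.49 in controls, a difference of -0.63 (SE 0.26, adjusted p = 0.337). Here 3 controls lay above all treated animals, and control 88 lay among them.

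MCM2 was the gene whose proximal groups did not overlap, at 6.89, 6.67, 6.54 and 6.64 with antibiotics and 7.01, 7.12, 7.02 and 7.33 in controls. The gap between the groups was small, and so was the spread within them. The difference was -0.43 (SE 0.21, interval -0.89 to 0.02, adjusted p = 0.411), and its interval includes 0. MCM3 differed by -0.45 (SE 0.24, adjusted p = 0.456) and MCM5 by -0.05.

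PCNA had 1 treated animal far above the others, while TYMS was widely spread among them. Proximal PCNA was 10.18, 9.92 and 9.76 in antibiotics animals 86, 87 and 95 but 11.83 in animal 98, where controls ranged from 10.73 to 11.27. TYMS was 7.67 in animal 98 and 7.32 in control 92, the highest values of the 16 arrays, with the rest between 4.95 and 6.78. The array of animal 98 was thus the highest of all 16 for both genes, while its RRM1 and MCM2 lay below every control.

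The remaining proximal mitotic genes overlapped between groups. CCNB1 was 10.52, 8.63, 9.70 and 10.68 with antibiotics and 10.94, 10.03, 10.67 and 11.25 in controls, a difference of -0.84 (SE 0.38, adjusted p = 0.376). Animal 87 was lowest, as it was for TOP2A, CCNB2 and UBE2C. Without the proximal array of animal 87 the CCNB1 difference was -0.42. BIRC5 differed by -0.77 (adjusted p = 0.41), CCNB2 by -0.73 (0.461), TOP2A by -0.40 (0.698), CENPF by -0.38 (0.622), NUSAP1 by -0.15 (0.825) and PLK1 by -0.13 (0.838).

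**Figure D3:**
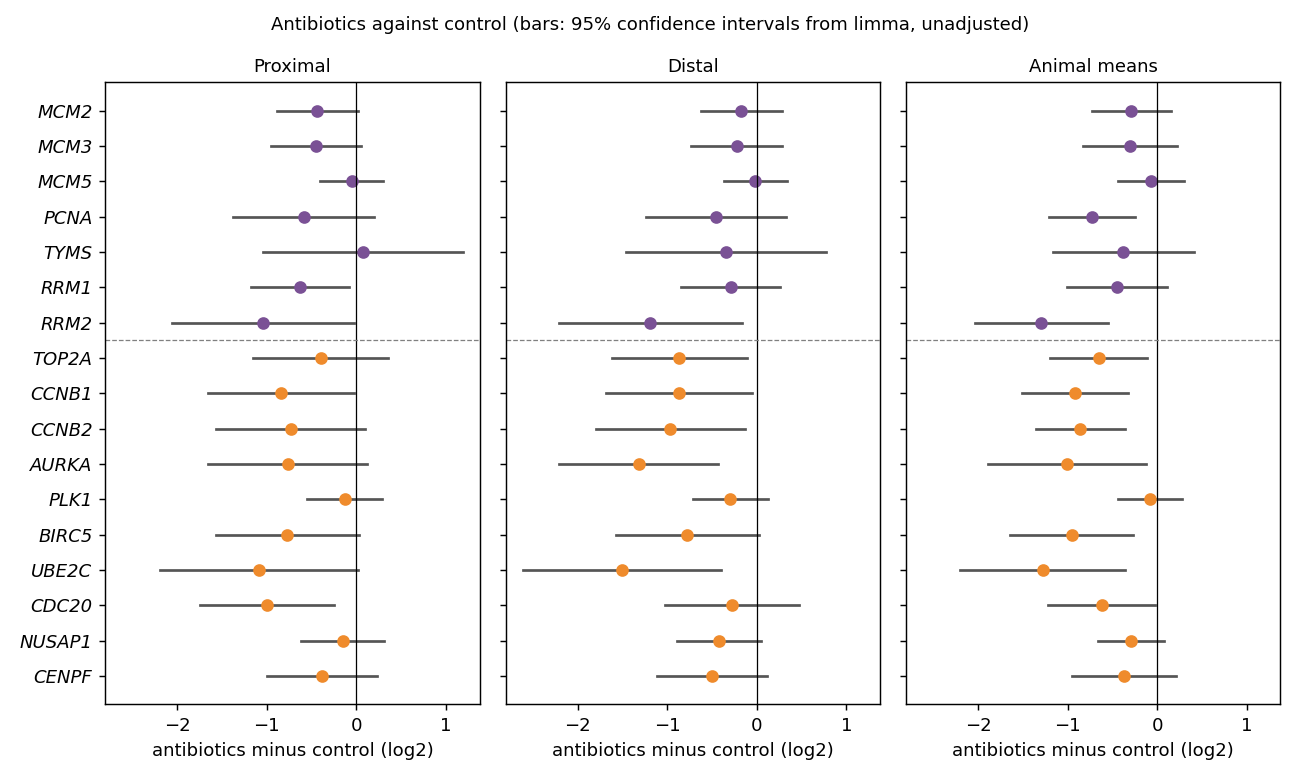
Difference of antibiotics minus control (log2, horizontal axis) for the 17 tested genes in proximal tissue, in distal tissue and on animal means, with points at the estimates and bars for 95% confidence intervals from limma, not adjusted for the number of genes. S phase genes are above the dashed line and G2 and mitosis genes below it, and the only estimate above 0 is that of TYMS in proximal tissue, at 0.07.

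The distal and proximal effects of antibiotics were compared directly in the same fit. Of 17 tested genes 11 had a more negative effect in distal tissue, against 43.4% of all tested probe sets. In limma 0 of 17 tested genes passed the threshold (0.191% of all probe sets did) and 0 had an unadjusted p under 0.05 (6.62% of all), and 0 passed the threshold under any of the alternatives run. The smallest adjusted p was 0.865, for CDC20, whose effect was 0.72 higher in distal than in proximal tissue (SE 0.50), and -0.02 without control proximal arrays 83 and 92. AURKA differed in effect by -0.55 (SE 0.59), TOP2A by -0.47 (SE 0.50), RRM1 by 0.34 (SE 0.37), MCM2 by 0.26 (SE 0.30) and MCM3 by 0.23 (SE 0.34). The median over the mitotic genes was -0.17 and over the S phase genes 0.08, the latter equal to that over all tested probe sets (0.08). A difference in the antibiotic effect between the segments was not detectable for any of the 17 genes, and the intervals, such as -1.81 to 0.70 for AURKA, leave room for differences in either direction. Omission of 1 array moved these values widely, for AURKA between -0.93 (without control proximal 92) and -0.19 (without control proximal 89), for TOP2A between -0.84 and -0.25 and for RRM1 between 0.18 and 0.56. The mitotic median then ranged from -0.31 to -0.04 and the S phase median from 0.0022 to 0.28.

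Each animal was then counted once, by the mean of its proximal and distal array, in the 3 antibiotics and 4 control animals with both. All 17 tested genes had a lower mean with antibiotics, against 53.2% of all tested probe sets. The median was -0.64 over the 12 mitotic and -0.34 over the 8 S phase genes, beside -0.03 for all tested probe sets. Without antibiotics animal 95 the S phase median was -0.18. None of the 17 passed the threshold in limma (0.347% of all probe sets did), and 9 had an unadjusted p under 0.05 on the lower side, against 9.42% of all: PCNA and RRM2 of the S phase genes and TOP2A, CCNB1, CCNB2, AURKA, BIRC5, UBE2C and CDC20. For 8 genes the treated animals all lay below the controls, against 8.28% of all probe sets. These means use the same arrays as the comparisons by segment and are no independent evidence.

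RRM2 was 6.16, 5.73 and 4.97 in antibiotics animals 86, 87 and 95 and 7.18, 6.37, 6.91 and 7.19 in controls 83, 88, 89 and 92. Animal 95 was lowest and control 88 closest to the treated animals. The difference was -1.29 (SE 0.32, interval -2.03 to -0.55, limma adjusted p = 0.131), and -0.97 without animal 95. PCNA was 10.56, 10.55 and 9.95 with antibiotics and 11.22, 11.05, 11.14 and 10.93 in controls, a difference of -0.73 (SE 0.21, adjusted p = 0.169). Its controls lay close together and above every treated animal. RRM1 differed by -0.44 (SE 0.24, limma adjusted p = 0.412), or -0.19 without animal 95. Animal 98, whose proximal PCNA was the highest of all arrays, has no distal array and is not in this comparison.

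CCNB2 was 7.79, 7.73 and 7.55 with antibiotics and 8.65, 8.09, 8.60 and 8.85 in controls, a difference of -0.86 (SE 0.22, adjusted p = 0.137). The treated animals were close together and the nearest control was 88. Without animal 88 the difference was -1.01 and passed the threshold (adjusted p = 0.0384), the only call among the fits that left out 1 animal. UBE2C differed by -1.28 (SE 0.40), AURKA by -1.002 (SE 0.38), BIRC5 by -0.95 (SE 0.30), CCNB1 by -0.92 (SE 0.26) and CDC20 by -0.62 (SE 0.26), with adjusted p between 0.168 and 0.299. NUSAP1 differed by -0.29 (adjusted p = 0.422), and by 0.30 at its second probe set.

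**Figure D4:**
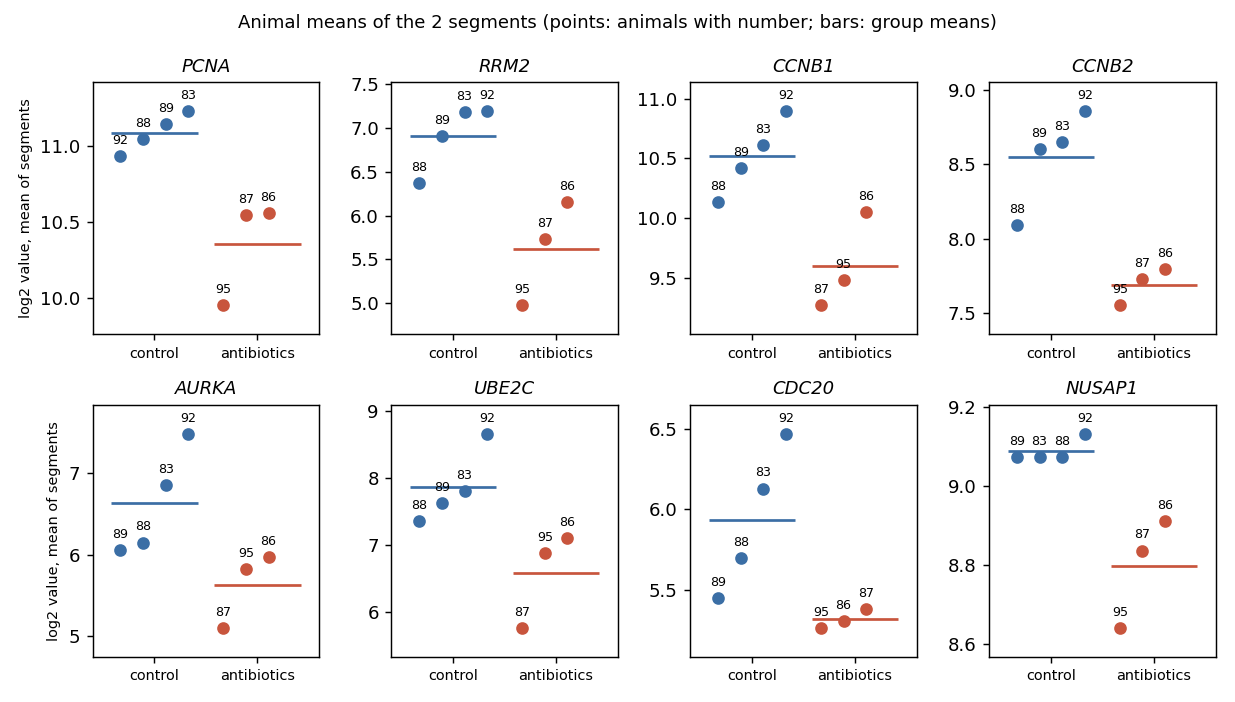
Mean of the proximal and distal log2 value of each animal (vertical axis, a scale of its own in each panel) for the 8 genes whose antibiotics and control animals did not overlap, with a labelled point for each animal and bars at group means. RRM2 lies between 4.97 and 6.16 in 3 antibiotics animals and between 6.37 and 7.19 in 4 controls, and control 88 is the lowest control for RRM2, CCNB1, CCNB2 and UBE2C.

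Between segments, the clearest pattern was that of CDC20 and AURKA, which were lower in distal than in proximal tissue. CDC20 was lower in the distal array of 7 of 7 animals, by a mean of -1.02 (SD 0.74, n = 7), and AURKA in 6 of 7, by -0.98 (SD 0.67). The exception for AURKA was control 89, at 0.21. PCNA and MCM2 were lower distally in 2 of 7, and the other genes except MCM4, which was at the floor, in 4 or 5. Of the 17 tested genes 13 had a lower distal mean in controls (51% of all tested probe sets) and 14 in treated piglets (44.7% of all).

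In control piglets CDC20 was 5.06, 5.61, 5.09 and 5.58 in distal and 7.20, 5.78, 5.82 and 7.36 in proximal tissue of animals 83, 88, 89 and 92. The groups did not overlap, although animals 88 and 89 differed far less than 83 and 92. The difference was -1.21 (SE 0.35, interval -1.95 to -0.46, limma adjusted p = 0.241), and -0.47 (SE 0.30, adjusted p = 0.877) without proximal arrays 83 and 92. It was the only gene of the 17 with an unadjusted p under 0.05 on the lower side (3.35% of all probe sets) or with groups apart (1.98% of all), and 0 passed the threshold (0.364% of all). AURKA differed by -0.78 (SE 0.42, adjusted p = 0.729) in controls, by -0.40 without proximal array 92 and by 0.06 without arrays 83 and 92. TYMS differed by -0.79 (SE 0.53), or -0.39 without proximal array 92, and MCM3 by -0.31 (SE 0.24), or -0.13 without proximal array 89. RRM1 differed by -0.29 (SE 0.26), and CCNB1 by -0.41 (SE 0.38), or -0.24 without proximal array 92.

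In treated piglets AURKA was 4.66, 5.11, 4.44 and 5.49 in distal (85, 86, 87 and 95) and 6.84, 5.76, 6.16 and 6.28 in proximal tissue (86, 87, 95 and 98). All distal arrays lay below all proximal ones. The difference was -1.33 (SE 0.42, interval -2.22 to -0.45, limma adjusted p = 0.0825), and with the animal as a random block, which allows for the pairing of segments, -1.32 (SE 0.38, adjusted p = 0.047). With the animal as a fixed block, over the 3 animals with both segments, it was -1.24 (SE 0.36, adjusted p = 0.0955). The second probe set of AURKA differed by -0.38 (adjusted p = 0.626). AURKA was the 1 gene whose groups were apart on the lower side (4.7% of all probe sets), and with TYMS one of 2 with an unadjusted p under 0.05 on that side (6.72% of all), while 0 of 17 passed the threshold (5.25% of all). TYMS differed by -1.20 (SE 0.53, adjusted p = 0.251), where its distal values, between 4.95 and 5.13, were the most uniform of the 4 groups and lay close to the filter level of 5. Without proximal animal 98 the TYMS difference was -0.71. MCM2 was higher in distal tissue by 0.35 (SE 0.21). RRM2 differed by -0.59 (SE 0.48), or -0.20 without distal animal 95, and CCNB2 by -0.55 (SE 0.39), or -0.29 without proximal animal 98. NUSAP1 differed by -0.46 (SE 0.22, limma adjusted p = 0.296), and by -0.03 at its second probe set.

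Other genes of the same pathways were read from lists chosen by function, with earlier results of the data known. Of 33 other replication and S phase genes with a probe set 24 were tested, of 35 other G2 and mitosis genes 30, and of 34 cell cycle regulators 29. None passed the threshold in limma for antibiotics against control in either segment, on animal means, or for the difference between segments. In proximal tissue all 30 tested G2 and mitosis genes had lower means (median of the 35 genes -0.52), with 9 at an unadjusted p under 0.05, where 56.8% and 7.28% of all probe sets did. By array, their median deviation was 0.51 and 0.55 in control proximal arrays 83 and 92, but 0.05 and 0.08 in 88 and 89. In the antibiotics proximal arrays it lay between -0.77 (animal 87) and 0.20 (animal 98), so the groups overlapped. In distal tissue 23 of 30 had lower means (49.6% of all), with a median of -0.26, 8 were lower at that p (7.95% of all) and 1 higher (7.85% of all). The other replication genes had medians of -0.12 in proximal and -0.06 in distal tissue, with 3 and 1 of 24 lower at that p, the distal share being below that of all probe sets. Of the 29 regulators 5 were lower at that p in proximal tissue, and 3 were lower and 2 higher in distal tissue. On animal means 15 of the 30 mitotic genes were lower at an unadjusted p under 0.05, and 6 of the 24 replication genes, with medians of -0.50 and -0.16, where 9.42% of all probe sets were lower at that p. Those means include control proximal arrays 83 and 92, and the counts without these arrays were not taken.

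CEP55 and MELK were picked out after their values were seen. CEP55, a protein of the midbody that ends cell division, had the smallest adjusted p of these genes on animal means, with a difference of -1.67 (SE 0.33, adjusted p = 0.0835). Its distal level was 6.44, 6.64, 6.99 and 6.25 in antibiotics animals 85, 86, 87 and 95 and 8.44, 7.76, 7.63 and 8.38 in controls 83, 88, 89 and 92. All treated animals lay below the controls, and the difference was -1.47 (SE 0.45, adjusted p = 0.109). In proximal tissue it was -1.48 (SE 0.45, adjusted p = 0.193). MELK, a kinase found in dividing cells, differed by -0.93 on animal means (SE 0.21, adjusted p = 0.11).

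Of the regulators 2 of 29 were called between segments in treated piglets, both higher in distal tissue. This is a share near that of all probe sets, of which 5.25% were called and 3.15% were called higher in that comparison. CDKN1A, which encodes the CDK inhibitor p21, rose from 7.43, 6.78, 7.09 and 6.55 in the proximal arrays of animals 86, 87, 95 and 98 to 8.80, 8.39, 7.996 and 8.87 in the distal arrays of 85, 86, 87 and 95. The groups did not overlap, and the difference was 1.56 (SE 0.34, limma adjusted p = 0.0121), with a difference of 0.998 in controls (adjusted p = 0.341). It passed the threshold in 20 of 22 other fits, the exceptions being those restricted to animals with both segments (adjusted p = 0.0901) and with the animal as a fixed block (0.0574). CDK7, the kinase that activates other CDKs, was higher by 1.25 (SE 0.35, adjusted p = 0.0496), and passed the threshold in only 1 of the 8 fits that left out 1 of these arrays.

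Markers of other cell types also differed between the groups. The list of crypt and stem cell markers had 4 of 16 genes with a probe set, of which OLFM4 and ASCL2 were tested and SOX9 was at the floor. OLFM4, a secreted protein of intestinal stem cells, fell in distal tissue from 14.70, 14.55, 15.05 and 14.86 in controls 83, 88, 89 and 92 to 12.90, 11.55, 14.28 and 10.84 in treated animals 85, 86, 87 and 95, a difference of -2.40 (SE 0.58, limma adjusted p = 0.0444). All treated animals lay below the controls, with animal 87 nearest to them and 95 lowest. In proximal tissue the difference was -2.21 (adjusted p = 0.141). The distal call was lost in 7 of the 8 fits that left out 1 distal array, with adjusted p up to 0.149. The log2 of the summed level of the crypt list, nearly all of it OLFM4, was 14.57 to 15.06 in control distal, 10.98 to 14.29 in antibiotics distal, 14.29 to 15.11 in control proximal and 11.71 to 13.69 in antibiotics proximal arrays. Its part in the result was not tested.

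Of the leukocyte markers 20 had a probe set and 6 were tested. In distal tissue 5 of the 6 had a lower mean with antibiotics and 1 a higher mean (49.6% of all tested probe sets were lower). In limma 3 of the 6 were called lower, where 2.12% of all probe sets were called in either direction. The called genes were CD163, CD53 and LCP1, genes of macrophages and of leukocytes in general (-5.002, -2.32 and -2.15, limma adjusted p = 0.0056, 0.0127 and 0.0297), while PTPRC, CD3E, CD4, CD14 and ITGAM were near the floor on all arrays. LCP1 kept its call in 2 of the 8 fits that left out 1 distal array, CD53 in 7 and CD163 in 8. The summed level of the list was 11.75 to 11.95 in control distal and 9.51 to 10.87 in antibiotics distal arrays, and 10.98 to 12.24 and 10.23 to 11.57 in proximal tissue. Lymphocytes and macrophages can divide too, and the part of these cells in the result was not tested.

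Villus enterocyte markers ran the other way in proximal tissue. Their summed level was 17.46 and 17.63 in control proximal arrays 83 and 92, against 18.51 and 18.54 in 88 and 89 and 18.43 to 18.84 in the antibiotics proximal arrays. Arrays 83 and 92 were thus highest in mitotic genes and lowest in enterocyte genes of the 16. In distal tissue the sum was 17.97 to 18.08 with antibiotics and 17.87 to 18.57 in controls. None of the 15 markers passed the threshold for antibiotics in either segment, where 0.147% of all probe sets did in proximal and 2.12% in distal tissue. Their median difference was 0.66 in proximal and -0.33 in distal tissue. In proximal tissue 13 of the 15 had higher means, against 4983 of 11538 tested probe sets. Of the 15, 6 were higher there at an unadjusted p under 0.05 in limma, against 643 of 11538. In distal tissue 10 had lower and 5 higher means (49.6% of all were lower), and 3 were lower at that p (7.95% of all).

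Of 10 goblet, Paneth and enteroendocrine markers with a probe set 9 were tested, and 8 of these had lower means with antibiotics in distal tissue, against 49.6% of all tested probe sets. The median over the 10 was -0.59 there, with 3 lower at an unadjusted p under 0.05 and 0 past the threshold in limma, and -0.36 in proximal tissue, with 2 and 0. Of all tested probe sets 7.95% were lower at that p in distal and 7.28% in proximal tissue, and 2.12% and 0.147% passed the threshold. Their summed level was 15.39 to 15.72 in control distal, 15.44 to 15.64 in antibiotics distal, 15.16 to 15.71 in control proximal and 14.68 to 14.97 in antibiotics proximal arrays, so the sums overlapped in distal tissue and were apart in proximal tissue. Of 13 stromal, muscle and endothelial markers 10 were tested, 9 of them with lower means in distal tissue (49.6% of all, median over the 13 of -0.13) and 0 at an unadjusted p under 0.05. Their summed level was 14.14 to 15.03 in control distal and 14.16 to 14.39 in antibiotics distal arrays. The part of these cells in the result was not tested.

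**Figure D5:**
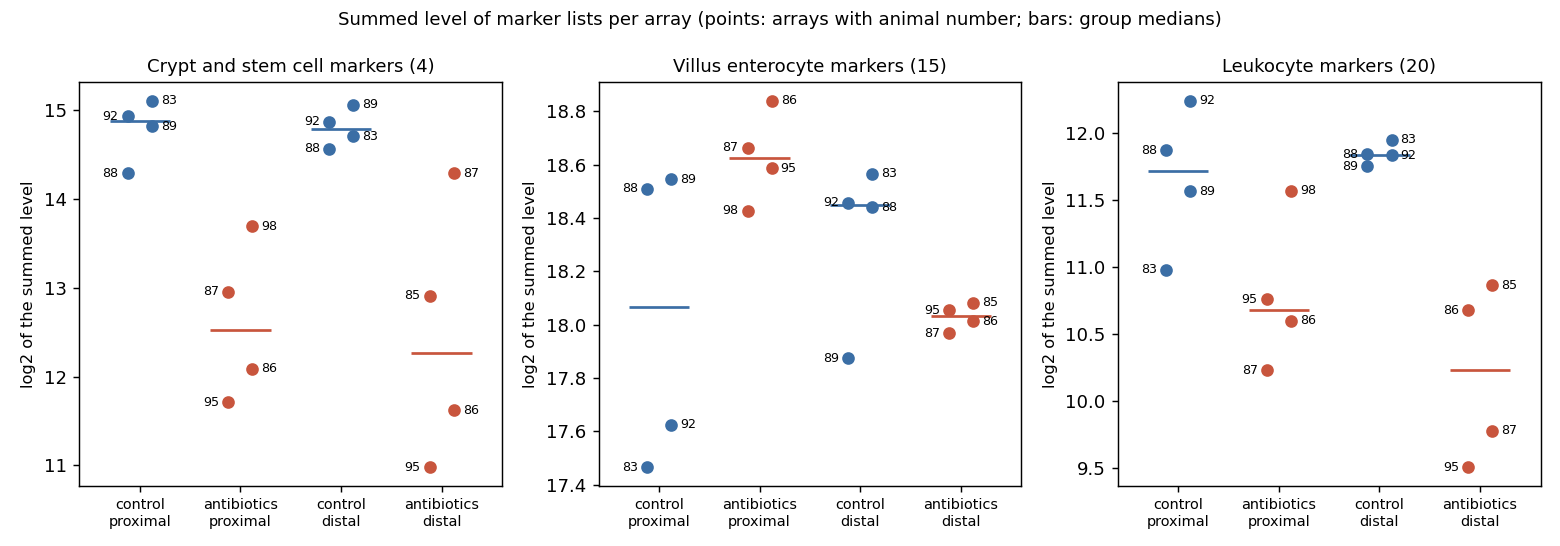
Log2 of the summed level of 4 crypt and stem cell, 15 villus enterocyte and 20 leukocyte markers on each array (vertical axes, each panel with its own scale), with points labelled by animal number and bars at group medians. Crypt markers lie between 14.57 and 15.06 in control distal arrays and between 10.98 and 14.29 in antibiotics distal arrays, and control proximal arrays 83 and 92 have the lowest enterocyte sums, 17.46 and 17.63.

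As a measure of RNA integrity, the GAPDH and actin control probe sets at the 3′ end were subtracted from those at the 5′ end. The result ranged from -4.28 to -2.89 in antibiotics distal and from -3.62 to -3.06 in control distal arrays, and from -3.44 to -2.64 and -4.17 to -2.44 in the proximal groups, so the groups overlapped. With this value as a covariate the mitotic median difference was -0.61 in distal and -0.54 in proximal tissue, and the S phase median -0.28 and -0.37. All comparisons of antibiotics and of segments share arrays, and values given for the 2 segments of an animal are not independent.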

How the data were processed

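Per the labels' protocols, total RNA was biotin-labelled by a 3′ IVT Express kit. The submitters' processing notes name GCOS 1.2, GCRMA and limma. The values the authors deposited are log2 GCRMA levels, with a floor at 2.14, and 39.7% of them lay under 2.5. Of 24123 probe sets the 124 controls were not used. The platform annotation, which can be old, gave 1 gene for 10069 of the rest, several for 198 and none for 13732.

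Means of the 4 groups were estimated on 16 arrays by lmFit and eBayes of limma 3.58.1 (R 4.3.3), with Benjamini-Hochberg adjustment of p-values across the 11538 tested probe sets and a threshold of 0.05. A second fit compared antibiotics with control on animal means. No test was run on a list. The genes, lists and rules were chosen with earlier results of these data known, and a lower level of proliferation genes with antibiotics in distal tissue had been seen, so the counts and medians are descriptions. Given in full were genes past the threshold, genes whose antibiotics and control arrays did not overlap, and the 3 genes of each phase with the largest moderated t in a comparison. Of the other pathway lists, genes past the threshold were named.

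The labels give no more on replicates than the animal numbers, and p-values were computed from the spread between these samples. The sow of each piglet is not given, so litter could not be taken into account. The residuals of an animal's 2 arrays correlated at 0.0293 to 0.526, above 0.1 for 5 of 7 animals. For 4 of 7 the proximal array correlated most with the distal array of the same number, but not for antibiotics animals 86 and 87 and control 89. The pairing rests on the number in the sample names. Alternatives were other filters and scalings, trend and robust eBayes, array quality weights, subsets of arrays, a block by animal (statmod 1.5.0, correlation 0.172), a covariate for RNA integrity, averaging a gene's probe sets, and omission of single arrays. The limma scripts were tested on simulated data. Python 3.11.15 with matplotlib 3.10.9 drew the figures. Protein and promoter sequences were not used here.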

Additional observations from a re-analysis of the deposited data

Results flagged for a closer look

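In each of the 4 groups, the 17 tested genes and the S phase and mitotic median deviations were checked for outlying arrays. Of these 76 sets of 4 values 4 held an array far from the other 3, by the ratio of its gap to the range of the group, which chance alone gives in about 1 of 20. MCM5 was 6.264 in control proximal animal 88, with the other 3 at 5.798, and 6.05 in antibiotics proximal animal 98, with the others at 5.798 to 5.802. PLK1 was 4.123 in antibiotics distal animal 85, with the others between 4.89 and 4.926. Both genes lay at a nearly constant value on most arrays. CENPF was 9.037 in antibiotics proximal animal 86, with the others between 7.91 and 8.082.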

How the results depend on the processing

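The number of genes past the threshold, 0 of 17 in each of the 6 comparisons, changed under some settings. With array quality weights 5 genes were called in distal tissue (TOP2A, CCNB1, CCNB2, AURKA and UBE2C, of 1665 probe sets called in all), 3 in proximal tissue (RRM1, RRM2 and BIRC5, of 951), 3 between segments in treated piglets (PCNA higher, AURKA and NUSAP1 lower, of 3008) and 1 on animal means (CCNB2, of 922), and the S phase median of the difference between segments was 0.41. With only the arrays of the groups compared 2 genes were called in distal tissue and 1 between segments in treated piglets (AURKA, at 0.0354). A random replicate block by animal gave 1 call between segments in treated piglets (AURKA), and neither block changed another call of the 17 genes. Without control proximal arrays 83 and 92, chosen after seeing the data, 1 gene was called in distal tissue and 1 between segments in treated piglets (AURKA in both). The mitotic median was then -0.10 in proximal tissue, 0.058 between segments in controls and -0.37 on animal means. The difference in effect turned to -0.017 for CDC20, and that between control segments to 0.055 for AURKA. The MCM3 difference in effect turned to -0.058 with the 5′ minus 3′ covariate, and NUSAP1 on animal means to 0.00313 with the mean of all its probe sets. Leaving out 1 array or animal gave 0 calls in 5 comparisons and 0 to 1 on animal means. Without control proximal array 92 the proximal mitotic median was -0.31. Quantile normalization or equal array medians left 18 or 19 of 20 genes lower in distal and 17 or 18 in proximal tissue. A fit on the arrays compared alone adds nothing for the difference between segments or for animal means, and blocks by animal cannot be set on animal means. MCM4, at the floor on nearly all arrays, could not show a lower level.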
